A study of Drosophila melanogaster with 16 samples.

Results

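The proteasome subunit genes of Drosophila melanogaster were compared between early embryos with and without clamp RNA interference. Members were taken by symbol: every gene whose FlyBase ID carries a symbol that starts with Prosalpha, Prosbeta, Rpn or Rpt followed by a digit. The rule matched 48 genes, of which 47 had a row among the 15682 genes of the tables, and Prosalpha4T1 had none. Of the 48, 32 are main copies, 14 of the 20S core and 18 of the 19S cap, and 16 carry a T or R after the subunit number, which marks duplicate copies, many of them known from testis. The members were matched by name, not by their values, although the family was chosen with earlier results of these data known.

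The proteasome is the protease that degrades proteins tagged with ubiquitin. Its 20S core is a barrel of outer rings of alpha subunits, which gate the entrance, and inner rings of beta subunits, which hold the cutting sites. The 19S cap sits on the core. Its Rpn subunits bind and deubiquitinate substrates and form the scaffold and lid, and its Rpt subunits are the ATPases that unfold substrates and feed them into the core. Embryos start development on RNA and protein laid down by the mother, and turnover of maternal proteins by the proteasome accompanies the change to zygotic control.

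Total RNA was sequenced from embryos of both sexes in 4 groups of 4 libraries, 16 in all. The labels call the controls MTD control. Their strain holds 3 drivers of the maternal germline, P{COG-Gal4:VP16}, then P{Gal4-nos.NGT}40, and as the last one P{nos-Gal4-VP16}. The clamp RNAi embryos came from mothers with these drivers over a y[1] sc[*] v[1] X chromosome, a + chromosome and P{TRiP.GLC01858}attP2, a single RNA interference line. Females of either genotype were mated to yw males, and eggs were collected at 0-2 hr and at 2-4 hr after laying. Clamp has zinc fingers and recognises GA repeats in DNA.

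The values are the authors' DESeq comparisons of a condition B with a condition A, 1 table per time, and no header or label says which genotype is A or B. In the authors' deposited table clamp RNA was 66.0-fold lower in B at 0-2 hr (adjusted p 2.62e-179) and 38.8-fold lower at 2-4 hr (adjusted p listed as 0), so B is called the condition with less clamp RNA. Levels are mean normalized read counts over both conditions, and differences are the log2 of B over A. The columns used give no value, spread or depth per library. Summed over all genes, the means came to 14955921 normalized reads in the earlier table and 13946624 in the later one. The labels do not say whether the 4 libraries of a group came from separate crosses. The DESeq p-values therefore cover the spread between these libraries alone, which may be technical. A gene is called where the authors' adjusted p is under 0.05.

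Nearly all main-copy proteasome genes were strongly expressed at both times, and the duplicates were near 0. At each time 31 of the 32 main copies had a mean of at least 500 normalized reads. Together the main copies held 0.666% of all normalized reads at 0-2 hr and 0.551% at 2-4 hr, against 0.00042% and 0.00077% for the 15 duplicates. Per kilobase of exon, the 13 core genes other than Prosalpha1 lay within a narrow band at 0-2 hr, from 2853 normalized reads per kb for Prosalpha4 to 4436 for Prosbeta4. The cap genes lay lower and were more spread, from 1241 normalized reads per kb for Rpt2 to 3133 for Rpn5, with a median of 1499 against 3416 for those core genes. The order within the core band was not tested, since no spread between libraries is given.

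Prosalpha1, an alpha ring gene, is the exception among the main copies. The authors' deposited table lists it at a mean of 15.6 normalized reads at 0-2 hr and 14.6 at 2-4 hr, although the core needs every alpha subunit. Its duplicate Prosalpha1R lies close by on the same arm, 2R, with only the gene CG18853 between them in the annotation, and is listed at 0.394 and 0. Reads from near-identical copies can be lost or split in counting, so the level of Prosalpha1 is uncertain. Whether this happened was not tested, and Prosalpha1 is left out wherever the text says so.

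**Figure D1:**
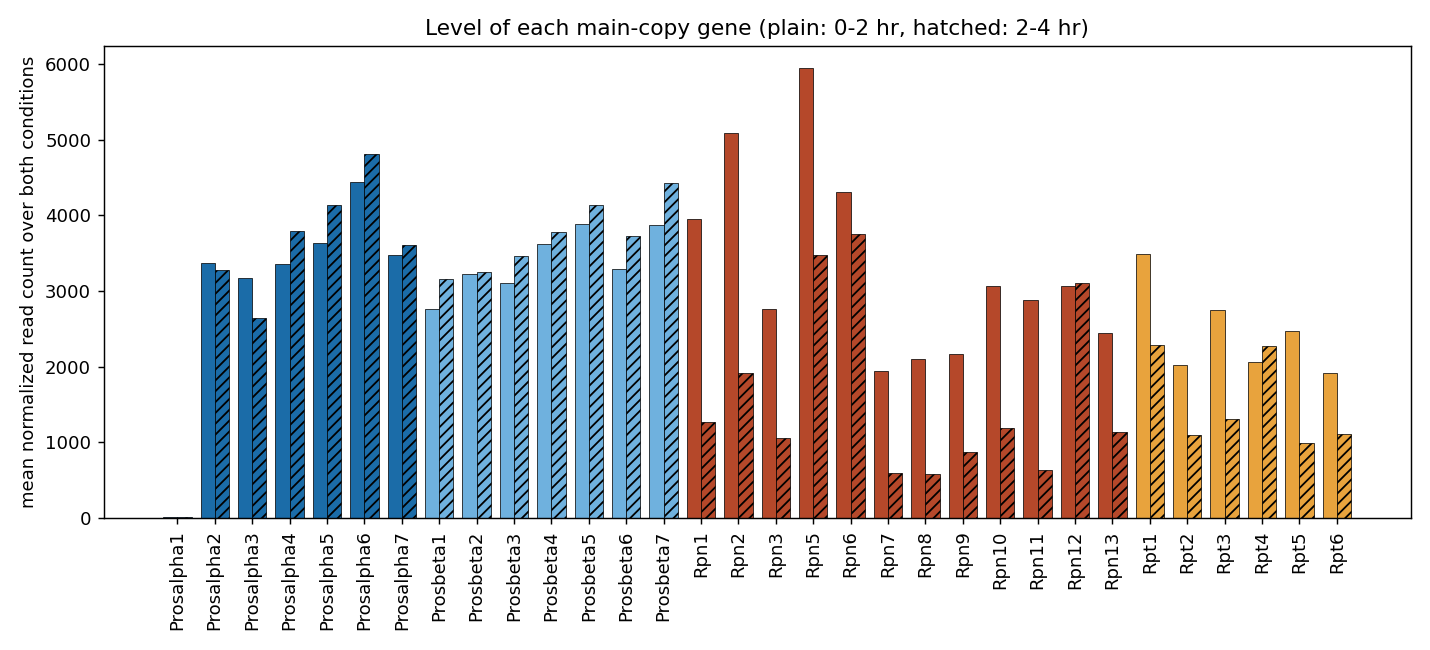
Mean normalized read count over both conditions (y axis) of each main-copy proteasome gene (x axis), at 0-2 hr (plain bars) and 2-4 hr (hatched bars), from the authors' deposited tables. Dark and light blue are 20S alpha and beta genes, red and orange 19S Rpn and Rpt genes. Core bars stay close in height between the times, while 11 of the 18 cap genes are at least 2-fold lower at 2-4 hr. No error bars are drawn because no spread per library is given.

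Core and cap levels diverged between the collections. From 0-2 hr to 2-4 hr the level of the 13 core genes moved by between -0.27 and 0.20 on the log2 scale, with a median of 0.11. The level of the 18 cap genes moved by between -2.20 and 0.14, with a median of -1.21, and 16 of the 18 had a lower mean at 2-4 hr. Of the cap genes 11 were at least 2-fold lower, as were 23.4% of the 4528 genes with a mean of at least 500 at 0-2 hr, whose median was -0.20. The tables were normalized separately and the means mix both conditions, so these shifts carry no test. Core genes are shorter than cap genes, and the shifts were not set against genes of like exon length.

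Within the cap, the fall in level between the times was uneven. Rpn11, the deubiquitinase that removes ubiquitin chains from substrates, went from a mean of 2881 normalized reads at 0-2 hr to 629 at 2-4 hr, which is 4.58-fold. Rpn8, its partner in the lid, went from 2099 to 580 normalized reads (3.62-fold), and Rpn7, another lid subunit, from 1940 to 586 (3.31-fold). Rpn1, a large base subunit that docks ubiquitin-carrying shuttle proteins, went from 3954 to 1269 (3.12-fold). Other cap genes stayed near their level. The lid subunit Rpn12 had means of 3060 and 3109 normalized reads, Rpn6, which clamps the lid onto the core, had 4303 and 3760, and the ATPase gene Rpt4 had 2058 and 2272.

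At 0-2 hr most cap genes lay above 0 in the comparison of B with A, 16 of 18, and most core genes slightly below it, 10 of 14. By the authors' deposited table, 7 of the 18 main-copy cap genes were higher in B (DESeq adjusted p under 0.05), 11 were not called and 0 were lower, also at an unadjusted p under 0.05. Of all 13096 tested genes, 5.56% were called higher and 5.61% lower, and of those with a mean of at least 500, 10.2% and 11.9%. Of the 14 core genes the authors' deposited table (DESeq) called 0 higher, also at an unadjusted p under 0.05, and 1 lower. The median log2 was 0.15 over the cap and -0.044 over the core, against -0.10 over all tested genes and 0.0046 over those with a mean of at least 500. This distance between core and cap closed on 1 other scale: less the median of genes of like exon length, a step described with the length values, the core median turned to 0.17 and the cap median was 0.17.

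The genes higher in B at 0-2 hr came from both the ATPase ring and the Rpn subunits. Rpt6, an ATPase of the base, had the largest rise among the main copies in the authors' deposited table, 1.47-fold (log2 0.56, DESeq adjusted p 0.00260, mean 1912). About 13% of its exon length overlaps CG1801 on the opposite strand. The sources used here do not say whether the counting used strand. Its fellow ATPase genes Rpt5 and Rpt2 rose 1.29-fold each in the authors' deposited table (log2 0.37 and 0.36, DESeq adjusted p 0.000196 and 0.000673, means 2465 and 2017). The remaining ATPase genes were not called: Rpt1 (log2 0.12), Rpt4 (log2 0.11) and Rpt3 (log2 0.036) in the authors' deposited table.

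Among the Rpn genes, Rpn8 rose 1.33-fold at 0-2 hr in the authors' deposited table (log2 0.42, DESeq adjusted p 8.16e-05) and Rpn7 1.29-fold (log2 0.37, adjusted p 0.0130). The large base subunits Rpn1 and Rpn2 rose 1.24-fold and 1.17-fold there (log2 0.31 and 0.23, DESeq adjusted p 0.00123 and 0.0209). The uncalled Rpn genes ran from -0.069 for Rpn12 to 0.21 for Rpn9 in log2, per the authors' deposited table. The ubiquitin receptors Rpn10 (log2 0.026) and Rpn13 (log2 0.088) and the deubiquitinase Rpn11 (log2 0.11) were among them.

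In the core, Prosbeta3, a beta ring subunit with no cutting site, fell at 0-2 hr in the authors' deposited table, by 0.24 on the log2 scale (DESeq adjusted p 0.0273, mean 3109). No other core gene was called at that time. The uncalled beta genes ran from -0.13 for Prosbeta4 to 0.13 for Prosbeta5 on the log2 scale, the latter encoding the chymotrypsin-like cutting subunit, in the authors' deposited table. The alpha genes ran from -0.11 for Prosalpha5 to 0.11 for Prosalpha4, with the weakly listed Prosalpha1 at 0.31. Of the 18 cap genes, 9 had a higher log2 than the highest core gene other than Prosalpha1, which was Prosbeta5 at 0.13. The 2497 genes at 500 normalized reads or more with an exon length in the cap range had quartiles of -0.14 and 0.16. At 2-4 hr 2 cap genes lay above the highest of these core genes and 6 below the lowest.

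**Figure D2:**
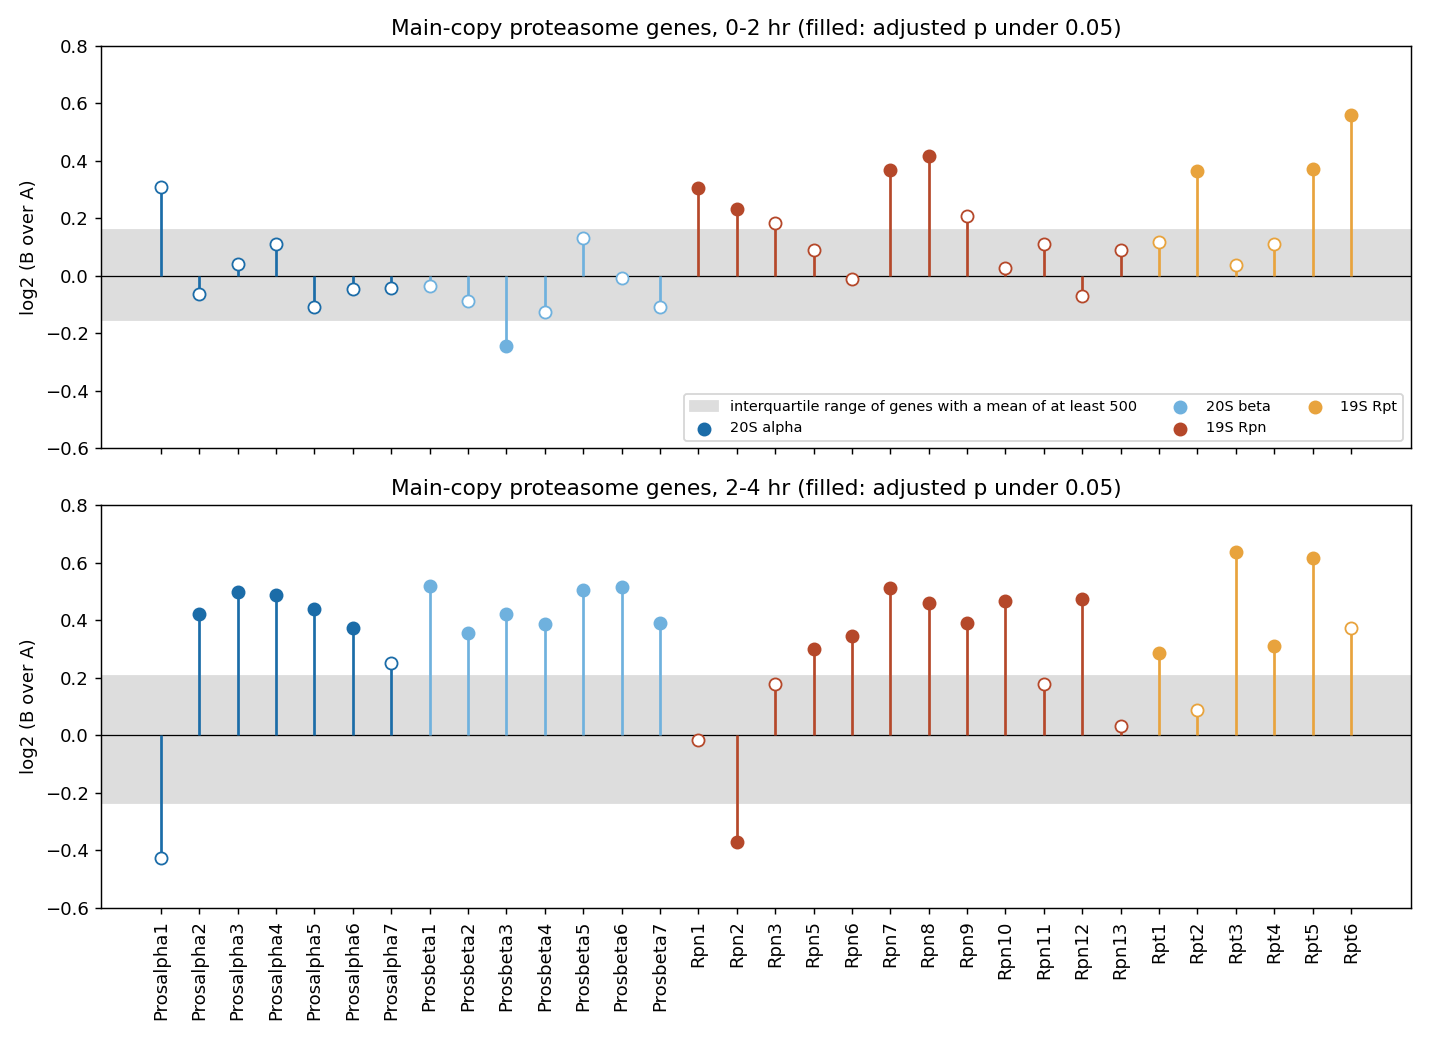
Log2 of condition B over condition A (y axis) for each main-copy gene (x axis) at 0-2 hr (upper panel) and 2-4 hr (lower panel), from the authors' deposited tables. Filled points were called at an adjusted p under 0.05, and the grey band is the interquartile range of tested genes with a mean of at least 500. At 0-2 hr the filled points above 0 are 7 cap genes, and at 2-4 hr 12 core and 11 cap genes.

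At 2-4 hr nearly the whole core and most of the cap were higher in B. The authors' deposited table called 12 of the 14 core genes higher and 0 lower (DESeq, also 0 at an unadjusted p under 0.05), and 11 of the 18 cap genes higher and 1 lower. Of all 14245 tested genes, 7.38% were called higher and 8.14% lower, and of those with a mean of at least 500, 14.0% and 19.1%. The median log2 was 0.42 over the core and 0.33 over the cap, against -0.041 over all tested genes and -0.0018 over those with a mean of at least 500. Less the median of genes of like exon length, both medians were 0.17. Of the genes at 500 normalized reads or more whose exon length was in the range of the core genes, 33.4% were called higher, and of those in the range of the cap genes 17.4%. All 23 rises of main copies were modest, since only Rpt3 and Rpt5 reached 1.5-fold.

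The core genes other than Prosalpha1 lay close together at 2-4 hr, from log2 0.25 to 0.52. The 332 genes at 500 normalized reads or more with an exon length in the core range had quartiles of 0.11 and 0.38. All 7 beta genes were called higher in the authors' deposited table, from log2 0.36 for Prosbeta2, the trypsin-like cutting subunit (DESeq adjusted p 0.00982), to 0.52 for Prosbeta1, the caspase-like one (adjusted p 3.08e-06). Prosbeta6 (log2 0.52), Prosbeta5 (log2 0.50), Prosbeta3 (log2 0.42), Prosbeta7 (log2 0.39) and Prosbeta4 (log2 0.39) lay between them in the authors' deposited table. Among the alpha genes, Prosalpha3 (log2 0.50), Prosalpha4 (log2 0.49), Prosalpha5 (log2 0.44), Prosalpha2 (log2 0.42) and Prosalpha6 (log2 0.37) were called higher there, with DESeq adjusted p from 9.27e-06 to 0.0010. Prosalpha7 had a log2 of 0.25 and just missed the threshold (DESeq adjusted p 0.0511 in the authors' deposited table). With p-values adjusted only over genes with a mean of at least 20, Prosalpha7 passed (0.0278). Prosalpha1, at its low mean, had a log2 of -0.43 and was not called.

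The cap genes were more mixed at 2-4 hr. The ATPase genes Rpt3 (1.56-fold, log2 0.64, DESeq adjusted p 1.82e-07) and Rpt5 (1.53-fold, log2 0.62, adjusted p 9.64e-05) had the largest rises of all main copies in the authors' deposited table. Rpt4 (log2 0.31, DESeq adjusted p 0.0185) and Rpt1 (log2 0.29, adjusted p 0.0363) rose less there. Rpt6 (log2 0.37, DESeq adjusted p 0.0937) and Rpt2 (log2 0.086, adjusted p listed as 1) were not called at this time in the authors' deposited table.

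Of the Rpn genes, 7 rose at 2-4 hr in the authors' deposited table: Rpn7 (log2 0.51), Rpn12 (log2 0.47), the ubiquitin receptor Rpn10 (log2 0.47), Rpn8 (log2 0.46), Rpn9 (log2 0.39), Rpn6 (log2 0.34) and Rpn5 (log2 0.30). Their DESeq adjusted p ran from 0.000595 for Rpn12 to 0.0211 for Rpn7, the latter at a mean of 586 normalized reads. For Rpn9, 15.7% of the exon length overlaps other genes on the opposite strand, so its count is in doubt as for Rpt6. Rpn2, the large scaffold subunit of the base, was the one member that fell, by 0.37 in log2 in the authors' deposited table (DESeq adjusted p 0.00474, mean 1910). The uncalled Rpn genes were Rpn3 and Rpn11, both at log2 0.18, Rpn13 at 0.032 and Rpn1 at -0.018 in the authors' deposited table.

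Set side by side, 25 of the 32 main copies had a higher log2 at 2-4 hr than at 0-2 hr, 13 of the 14 in the core and 12 of the 18 in the cap. So did 51.3% of the 3675 genes with a mean of at least 500 at both times, but 97.2% of the 316 of these with an exon length in the core range and 68.0% of the 1891 in the cap range. Less the median of genes of like exon length, 17 of 31 main copies were higher at 2-4 hr, 9 of 13 in the core and 8 of 18 in the cap. The 3 main copies called higher at both times were Rpn7, Rpn8 and Rpt5. The shares of all genes called higher at both times and called at neither were not counted. Rpn2 was called higher at 0-2 hr and lower at 2-4 hr, and Prosbeta3 lower at 0-2 hr and higher at 2-4 hr. The 5 main copies called at neither time were Prosalpha1, Prosalpha7, Rpn3, Rpn11 and Rpn13. No test of the change between the collections was made, since it needs values per library.

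**Figure D3:**
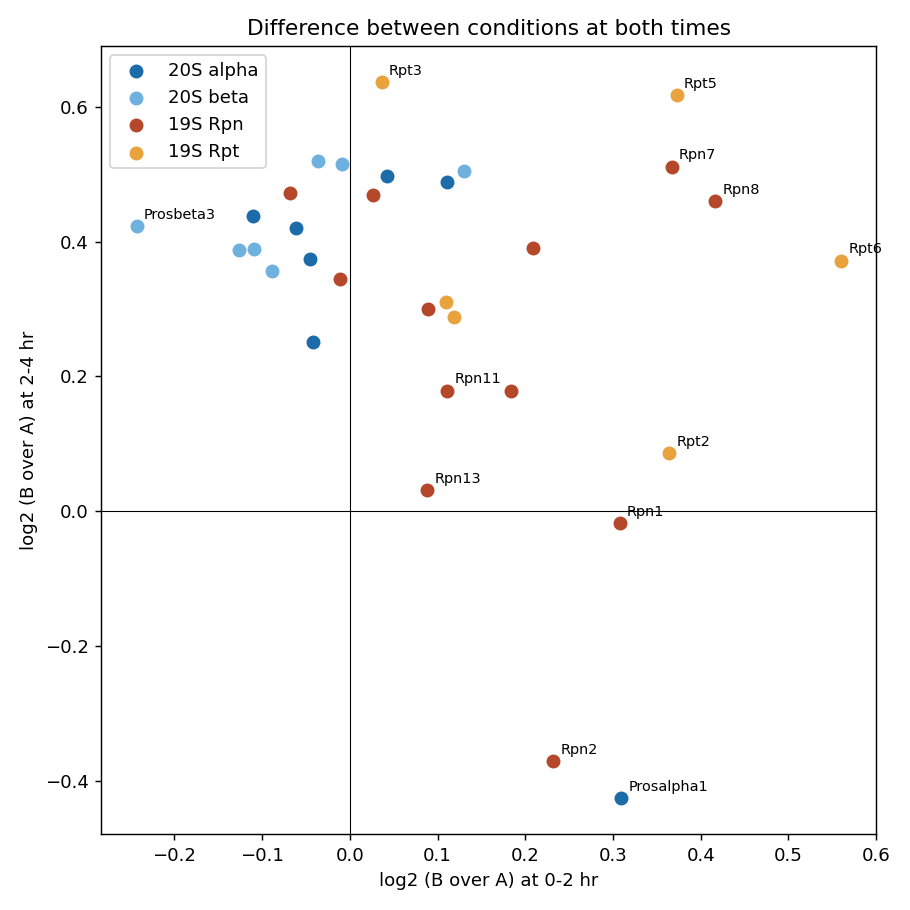
Log2 of condition B over condition A at 0-2 hr (x axis) and 2-4 hr (y axis) for the 32 main copies, 1 point per gene, from the authors' deposited tables. Core genes (blue) cluster near 0 on the x axis and around 0.4 on the y axis, apart from Prosalpha1. Cap genes (red, orange) spread along both axes, with Rpn2 above 0 at 0-2 hr and below 0 at 2-4 hr.

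Exon length moved with these differences across the genes of known length at 500 normalized reads or more, 4295 at 0-2 hr and 3638 at 2-4 hr, and short genes lay on opposite sides of 0 at the 2 times. Core genes are short, with a median exon length of 973 bases over the 13 other than Prosalpha1, and cap genes longer, with a median of 1589 bases. Across 20 bins of length, the median log2 at 0-2 hr rose from -0.31 in the shortest to 0.084 in the 15th, at a median length of 3896.5 bases, and lay between 0.030 and 0.072 in the 5 longer bins. At 2-4 hr it went from 0.31 in the shortest bin to -0.54 in the longest. At 0-2 hr the 405 genes at 500 normalized reads or more and with an exon length in the range of those core genes, 815 to 1215 bases, had a median log2 of -0.17, and 24.9% were called lower. At 2-4 hr the 332 such genes had a median log2 of 0.25, and 33.4% were called higher. In the range of the cap genes, 995 to 3412 bases, the median log2 was 0.0050 over 2497 genes at 0-2 hr and 0.097 over 1964 genes at 2-4 hr.

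Measured against genes of like length, core and cap had nearly the same median. For each of the 31 main copies other than Prosalpha1, the median log2 of the genes with a mean of at least 500 in the same of 20 bins of exon length was subtracted, a step chosen after the data were seen. At 0-2 hr the remainder had a median of 0.17 over the core and 0.17 over the cap, and 28 of the 31 genes lay above their length bin. At 2-4 hr the medians were again 0.17 and 0.17, and 26 of the 31 lay above. The cap minus core difference in median log2 was 0.20 at 0-2 hr and -0.094 at 2-4 hr as deposited, and 0.0010 and 0.0057 after this step. Prosbeta3 at 0-2 hr was at -0.015 after it.

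Single cap genes still stood well above their length bin. Rpt6 at 0-2 hr was 0.65 above it on the log2 scale, Rpn7 0.46 and Rpn8 0.45. At 2-4 hr Rpt3 was 0.48 above its bin and Rpt5 0.46, while Rpn2 was below it, at -0.34. The core stayed within -0.027 to 0.27 of its bins at 0-2 hr and within -0.0043 to 0.28 at 2-4 hr.

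**Figure D4:**
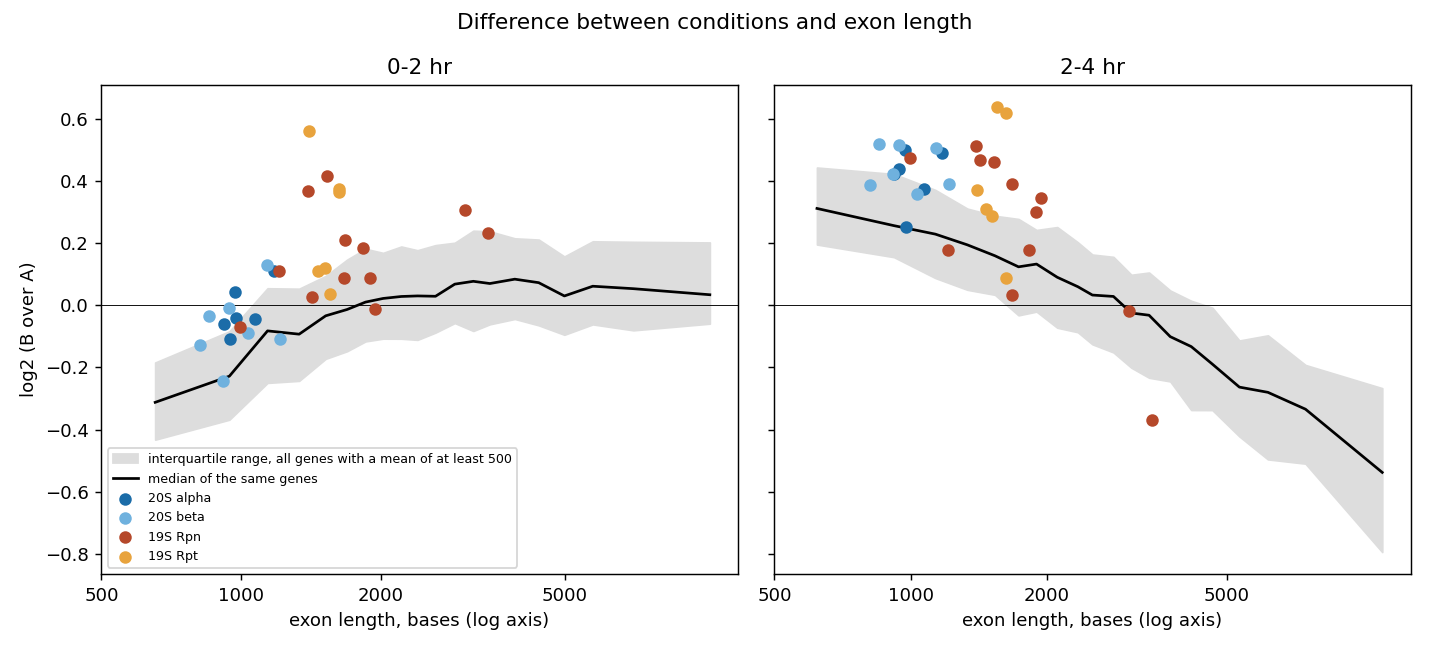
Log2 of condition B over condition A (y axis) against exon length in bases (x axis, log scale) at 0-2 hr (left) and 2-4 hr (right). The black line and grey band are the median and interquartile range of genes with a mean of at least 500 in 20 bins of length, and points are the 31 main copies other than Prosalpha1. The line rises with length up to about the 15th bin at 0-2 hr and then levels off, and falls with length at 2-4 hr, and most points lie above it at both times.

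The T and R copies were barely present in these embryos, with 3 exceptions. Of the 15 with a row, 12 had a mean under 2 normalized reads at each time: Prosalpha1R, Prosalpha3T, Prosalpha4T2, Prosalpha6T, Prosbeta2R1, Prosbeta4R1, Prosbeta4R2, Prosbeta5R1, Prosbeta5R2, Rpn12R, Rpn13R and Rpt4R. At each time 2 of these were listed at 0 and could not be tested, Prosbeta4R1 and Prosbeta4R2 at 0-2 hr and Prosalpha1R and Prosalpha3T at 2-4 hr. The highest mean among the 12 was 1.16, of Rpn13R at 2-4 hr, and none of the 12 was called at either time. Only Rpt3R, at both times, and Prosbeta2R2, at 2-4 hr, had a mean of at least 20.

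Rpt3R, a duplicate of the ATPase gene Rpt3, was higher in B at both times. The authors' deposited table gave it a mean of 49.4 normalized reads and a 3.07-fold rise at 0-2 hr (log2 1.62, DESeq adjusted p 0.00199), and a mean of 72.8 and a 3.49-fold rise at 2-4 hr (log2 1.81, adjusted p 1.60e-07). Per kilobase of exon it stood at 34.0 normalized reads at 0-2 hr, against 1765 for Rpt3, and at 50.1 against 842 at 2-4 hr. Its neighbours on arm 3R were not called: Tti1 had log2 values of 0.36 and -0.17 and Alg12 of 0.22 and 0.42 at 0-2 hr and 2-4 hr. Rpt6R, a duplicate of Rpt6, had similar ratios at lower means of 7.42 and 6.50 normalized reads, with log2 values of 1.55 and 1.54 that were not called (DESeq adjusted p 0.536 and 0.504 in the authors' deposited table).

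Prosbeta2R2, a duplicate of the trypsin-like subunit gene Prosbeta2, was 15.1-fold higher in B at 2-4 hr in the authors' deposited table (log2 3.92, DESeq adjusted p 1.15e-07), at a mean of 21.9 normalized reads. At 0-2 hr it had a mean of 3.55 and a log2 of 0.90 that was not called (adjusted p listed as 1 in the authors' deposited table). Its neighbours on arm 3R, snRNA:U4atac and CG1116, were not called at either time, with log2 values of -0.21 and 0.10 at 2-4 hr. In all, 1 of 13 tested T and R copies was called at 0-2 hr and 2 of 13 at 2-4 hr, each of them higher in B. The 1 of 13 is near the 5.56% of all tested genes called higher at 0-2 hr, and 7.38% were at 2-4 hr.

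**Figure D5:**
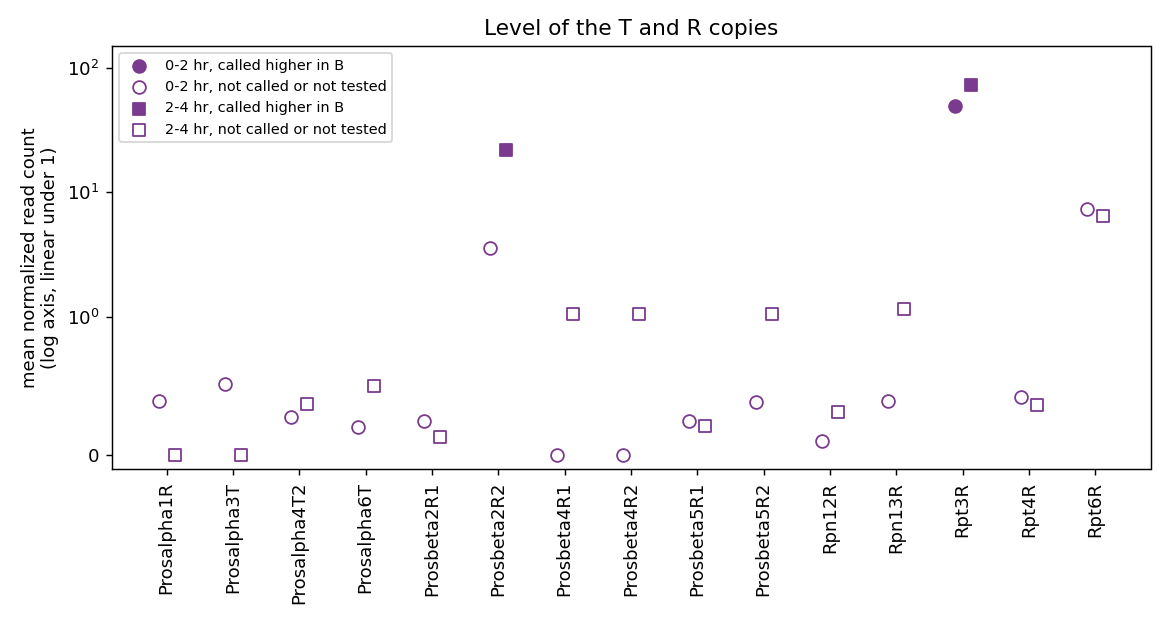
Mean normalized read count over both conditions (y axis, log scale, linear under 1) of the 15 T and R copies (x axis) at 0-2 hr (circles) and 2-4 hr (squares), from the authors' deposited tables. Filled symbols were called higher in B, and open ones were not called or not tested. Rpt3R, Prosbeta2R2 and Rpt6R stand above the other 12 copies, which stay under 2 normalized reads.

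Markers of other cell sources were read beside these values. Testis and sperm genes had low levels: of the 12 of 13 with a row, the second highest mean was 1.02 normalized reads at 0-2 hr and 2.74 at 2-4 hr, below mia at 33 and 56.1. At 0-2 hr 2 of them were listed at 0, and 1 at 2-4 hr. The authors' deposited table (DESeq) called 0 of them at either time, also at an unadjusted p under 0.05. Late-embryo muscle genes, 6 of 7 with a row, had means of 62.5 to 402 at 0-2 hr and 61.2 to 511 at 2-4 hr, with summed means of 988 and 1197 normalized reads. Their median log2 was -2.82 at 0-2 hr and -5.15 at 2-4 hr, and DESeq called 0 of them, also at an unadjusted p under 0.05. At 2-4 hr these muscle genes ran from 29.3-fold (Act57B) to 137-fold (Tm2) lower in B, with unadjusted DESeq p of 0.224 and 0.132. No value per library is given, so how evenly the libraries of a group held this RNA was not tested. The part of the muscle genes in the proteasome differences was not tested. In bulk samples, fewer cells of a type and less RNA per cell cannot be told apart.

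Genes around the proteasome were read from a list of 50 genes of regulators, ubiquitin supply, substrate extraction, deubiquitinases and ligases, of which 47 had a row and were tested at both times. The authors' deposited table called 8 higher and 4 lower at 0-2 hr, and 12 higher and 5 lower at 2-4 hr, with median log2 values of 0.043 and 0.12. Of all genes with a mean of at least 500, 10.2% were called higher and 11.9% lower at 0-2 hr, and 14.0% and 19.1% at 2-4 hr, so the list's share of lower calls, 8.51% and 10.6%, was no greater than theirs. Its share of higher calls was 17.0% and 25.5%. The list genes, and the groups within the list, were not set against genes of like exon length. Shares called higher differed with length: at 2-4 hr 33.4% in the core length range and 17.4% in the cap range. Sem1, TER94 and slmb had no row. The 10 measured regulators and assembly factors had 3 higher at 0-2 hr and 5 at 2-4 hr, and 0 lower at either time in the authors' deposited table (DESeq), beside 10.2% and 14.0% of genes with a mean of at least 500 called higher. At an unadjusted p under 0.05, 1 regulator, Pomp, was lower at 0-2 hr and 0 at 2-4 hr.

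Regulators at 0-2 hr included Uch-L5, a deubiquitinase of the cap (log2 0.33, DESeq adjusted p 0.00190), PI31, a proteasome-binding protein (log2 0.42, adjusted p 0.00898), and cnc, the fly relative of the mammalian Nrf factors that drive proteasome genes (log2 0.37, adjusted p 0.0255), in the authors' deposited table. At 2-4 hr REG, the PA28 activator of the core (log2 0.48, DESeq adjusted p 2.10e-05), maf-S, the partner of Cnc (log2 0.56, adjusted p 0.000312), and Uch-L5 (log2 0.63, adjusted p 0.000443) were higher there. So were Pomp, the chaperone of core assembly (log2 0.44, adjusted p 0.0180), and Usp14, a deubiquitinase of the cap (log2 0.31, adjusted p 0.0257), in the authors' deposited table. At 2-4 hr cnc had a log2 of 0.034 (adjusted p listed as 1). Among the other list genes, the authors' deposited table had p47, a cofactor of the unfoldase that extracts substrates, higher at 0-2 hr (log2 0.39, DESeq adjusted p 0.000453), with the deubiquitinase genes Usp5 (log2 0.33, adjusted p 0.00712) and Usp8 (log2 0.38, adjusted p 0.00870). At 2-4 hr p47 was called higher again (log2 0.47, DESeq adjusted p 0.0161), while Usp5 (log2 0.14) and Usp8 (log2 -0.065) were not called.

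The 8 genes listed under ubiquitin supply and activation include Nedd8, Uba2 and Aos1, which belong to ubiquitin-like modifiers and not to ubiquitin itself. The 8 had 3 lower calls at 0-2 hr, and 2 higher and 1 lower at 2-4 hr. Of the genes at 500 normalized reads or more, 11.9% were called lower at 0-2 hr, and 14.0% higher and 19.1% lower at 2-4 hr. At 0-2 hr the authors' deposited table had Ubi-p5E, a polyubiquitin gene (log2 -0.63, DESeq adjusted p 2.53e-17), Uba1, the ubiquitin-activating enzyme (log2 -0.31, adjusted p 0.000107), and the ubiquitin fusion gene RpL40 (log2 -0.47, adjusted p 0.0131) lower in B, and 0 of 8 higher, also at an unadjusted p under 0.05. The ligase subunit SkpA was lower there too (log2 -0.37, DESeq adjusted p 3.55e-05). At 2-4 hr Uba1 was 1.97-fold lower (log2 -0.98, DESeq adjusted p 4.71e-21), and shtd, a subunit of the anaphase-promoting complex, was 1.73-fold lower (log2 -0.79, adjusted p 1.22e-07) in the authors' deposited table. The ligase gene ago was lower at that time as well (log2 -0.38, DESeq adjusted p 0.000499), while Ubc6, a conjugating enzyme, was higher (log2 0.41, adjusted p 0.000267) in the authors' deposited table. Ubqn, a shuttle protein that carries ubiquitinated substrates, was also lower at 2-4 hr (log2 -0.26, DESeq adjusted p 0.0368) in the authors' deposited table. The 2 of these 8 genes called higher at 2-4 hr there were Nedd8, a ubiquitin-like modifier (log2 0.58, DESeq adjusted p 0.00176), and Ubi-p63E (log2 0.31, adjusted p 0.00851). Ubi-p5E (log2 -0.12) and RpL40 (log2 0.16) were not called at that time.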

How the data were processed

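The authors deposited 2 comparison tables, 1 per collection time. The columns, per the file headers, are a normalized signal (normalized reads averaged over both conditions), the B over A ratio, the log2 of that ratio, and a raw and an adjusted p-value. DESeq, HTSeq 0.5.4p3, TopHat2 2.0.13 and the build dm3 are listed without roles, per the submitters' processing notes. In these tables the log2 was that of the ratio, and the adjusted p was a Benjamini-Hochberg adjustment. The separate means per condition, 4 columns, were not used, since no label matches them to a genotype. The design assumed counts per library, so its fallback was used: the authors' calls over all tested genes. Genes were named through a FlyBase symbol table (15002 IDs). Exon lengths, arms and neighbours came from BDGP6, Ensembl release 115, without coordinates because the build differs.

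The members and lists were chosen with earlier results of these data known. Named genes are all called members, the extremes of the uncalled ones, the T and R copies, up to 4 called list genes in each direction at each time, and Clamp. PI31, cnc, Pomp, Usp14, Nedd8, Ubi-p63E and mia were added after their values were seen. Tables and plots were made in Python 3.11.15 with numpy 2.4.6, pandas 2.3.3 and matplotlib 3.10.9. A planned count of promoter motifs was not made. The p-value adjustment was tested on simulated data.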

Additional observations from a re-analysis of the deposited data

How the results depend on the processing

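No paired analysis was possible because the tables hold no value per library. For the same reason leaving out replicates, other tools and per-library scalings were not run, nor were pseudocounts or scaling to equal sums, which need the condition means. With calls of at least 1.5-fold, members called higher went from 8 to 1 at 0-2 hr and from 25 to 4 at 2-4 hr, cap genes called higher from 7 to 0 and from 11 to 2, and core genes at 2-4 hr from 12 to 0. On that rule the 1 fall at each time, in the core at 0-2 hr and in the cap at 2-4 hr, was lost (0). At an adjusted p under 0.01 the cap genes called higher at 2-4 hr went from 11 to 4, and the fall at 0-2 hr was lost (0). At that stricter threshold 3.77% of tested genes were called higher at 0-2 hr and 4.89% at 2-4 hr, and on 1.5-fold calls 2.47% and 3.85%. Less the median of genes of like exon length, the core median turned from -0.044 to 0.17 at 0-2 hr and moved from 0.42 to 0.17 at 2-4 hr, and cap minus core moved from 0.20 to 0.0010 and turned from -0.094 to 0.0057. Centring on genes with a mean of at least 20 subtracted medians of -0.0063 at 0-2 hr and -0.0078 at 2-4 hr. These are too small to turn the sign of any called member. Without Rpn9, Rpt6 and Prosalpha1, whose counts are in doubt from overlapping exons or a nearby copy, a choice made after the data were seen, cap minus core was 0.16 and -0.12.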
